A study of Dicosmoecus gilvipes with 20 samples.

Results

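Glutathione S-transferase and carbonyl reductase are enzymes that clear reactive products of oxidation, and the report follows their transcripts in the thorax of larvae of *Dicosmoecus gilvipes*, a stone-cased caddisfly of streams, across 4 temperatures. The members were the GST contig comp58392_c0_seq1, which is the one contig of its Trinity subcomponent, and the 10 contigs of subcomponent comp61657_c0, of which comp61657_c0_seq4 is the contig that the study listed as carbonyl reductase. This gave 11 members among the 135858 contigs of the assembly. A Trinity subcomponent groups contigs assembled from overlapping reads, such as splice forms, alleles or close copies, and its contigs are called seq1 to seq10 below. The study had picked comp58392_c0_seq1 and seq4 from these same libraries as transcripts that decline in heat. Their levels and fold changes are therefore a description without a test, whereas seq3 and seq9, which the study did not pick, were tested.

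The libraries came from larvae in their last instar that were ramped slowly to 15.5, 20, 25 or 28.6°C and held there before sampling, with 5 libraries per temperature and 20 in all. RNA of the same 8 larvae went into each of the 5 libraries made at one temperature, so error terms and p-values cover library preparation, counting and read assignment and leave out variation between animals. The study compared the temperatures to find transcripts that respond to warming. No other treatment, strain or genotype distinguished the groups, and all larvae shared a holding period at a cooler common temperature. In thorax RNA, fewer cells of a type and less RNA per cell cannot be told apart.

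Glutathione S-transferases join glutathione to electrophiles such as lipid aldehydes, drugs and plant toxins, and some also reduce lipid peroxides. In insects they belong to several classes (delta, epsilon, sigma, omega and others), and the sigma class is abundant in the flight muscle of *Drosophila*. Carbonyl reductases are NADPH-dependent short-chain dehydrogenases that turn reactive aldehydes, ketones and quinones into alcohols, so both enzyme families act on carbonyls that arise when lipids oxidize.

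By the annotation the authors deposited, comp58392_c0_seq1 (1302 bases) best matched Glutathione S-transferase of the house fly, entry GST_MUSDO, with 24.47% identity and an E value of 1e-09, over bases 282 to 803. This is a distant match, and the files give no class for the enzyme. Seq4 (1094 bases) best matched Carbonyl reductase [NADPH] 1 of the pig, CBR1_PIG, with 41.84% identity and an E value of 1e-65. Seq2 had the same best match, and seq1, seq8 and seq10 best matched Carbonyl reductase [NADPH] 3 of the mouse, CBR3_MOUSE, at identities of 43.58%, 43.44% and 43.44%. The annotation used here covers only transcripts that the authors had called, and the other 5 contigs (seq3, seq5, seq6, seq7 and seq9) are not among them. Whether they have a match of their own is therefore not known here, and they share the name only through their subcomponent.

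The 20 libraries held between 6756103 and 14236152 estimated counts. The 10 contigs of comp65386_c0, which took between 0.490% and 77.0% of them, were removed before scaling, because 2 libraries of 20°C were dominated by them. These were replicates 1 and 4 of 20°C, with 5484995 and 2485595 counts left, against at least 6676486 in each other library. Expression is given as CPM, counts scaled to a common library total with edgeR's TMM factors, and compares libraries for one contig. FPKM, which also divides by contig length, compares contigs. TMM factors were 0.798 to 0.907 at 20°C, against 1.099 to 1.17 at 15.5°C. Without these factors the median contig at 20°C lay 0.42 below 15.5°C on the log2 scale, against 0.01 above with them, so comparisons with 20°C depend on this choice. Genes that mark other tissues also moved with temperature. The summed CPM of the 60 digestive tract contigs that passed the filter on low counts (of 64 listed) was 11586 to 12461 at 15.5°C, then 20336 to 25339 at 20°C, 7076 to 8666 at 25°C and 3520 to 3846 at 28.6°C. The 6 fat body contigs summed to 8214 to 8724, 32454 to 40812, 6831 to 8324 and 3963 to 5429 CPM across the same series, the 5 haemocyte contigs, which are the 5 phenoloxidases of the redox list below, to 409 to 436, 340 to 352, 369 to 435 and 82.1 to 105 CPM, and the 7 muscle contigs to 1225 to 1546, 1530 to 1850, 1373 to 1639 and 1226 to 1567 CPM. The thorax was dissected to favour muscle, and troponin, which marks it, averaged between 1133 and 1495 CPM and makes up most of the muscle sum. Contig by contig the muscle list was lower in heat, with 3 of 7 lower and 0 higher by both criteria at 28.6°C against 15.5°C (over all contigs 4.77% and 6.66%) and median log2 fold changes of -1.25 there and -0.93 at 25°C against 20°C. The study took this troponin contig as a reference gene for its low variation in these libraries, so little change in its level follows from that choice. The other contigs of the tissue lists come from transcripts that were called on these libraries. The part of these tissues in the results below was not tested.

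How reads were shared among the contigs decides what can be measured. Every read of GST mapped to that contig alone, with 4453 estimated and 4453 unique counts over the 20 libraries. In comp61657_c0, 8 of the 10 contigs had no unique count. Seq4 was assigned 3135 estimated counts and had 0 unique counts among 3257 fragments that map to it at all, which allows a unique share of up to 0.0921%. Seq3 had 797 unique counts, 60.4% of its estimated counts, and seq9 had 11, or 1.15%. The estimated count of seq4 is therefore what the counting program assigned to it among contigs with the same reads, and the sum over the subcomponent does not depend on that split. Of the 11 members, 4 passed the filter of at least 2 CPM in at least 4 libraries, which were GST, seq3, seq4 and seq9. The other 7 (seq1, seq2, seq5, seq6, seq7, seq8 and seq10) held 58.1 estimated counts together, 1.06% of the subcomponent, although 1147 to 2680 fragments mapped to each of them at all. Their highest estimated counts in a single library were 22.1 for seq2 in replicate 4 of 20°C. Next came 8.80 for seq2 in replicate 1 of 25°C and 8.10 for seq10 in replicate 1 of 20°C. Replicates 1 and 4 of 20°C were the libraries with the fewest counts left, which replicate 1 of 25°C was not.

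**Figure D1:**
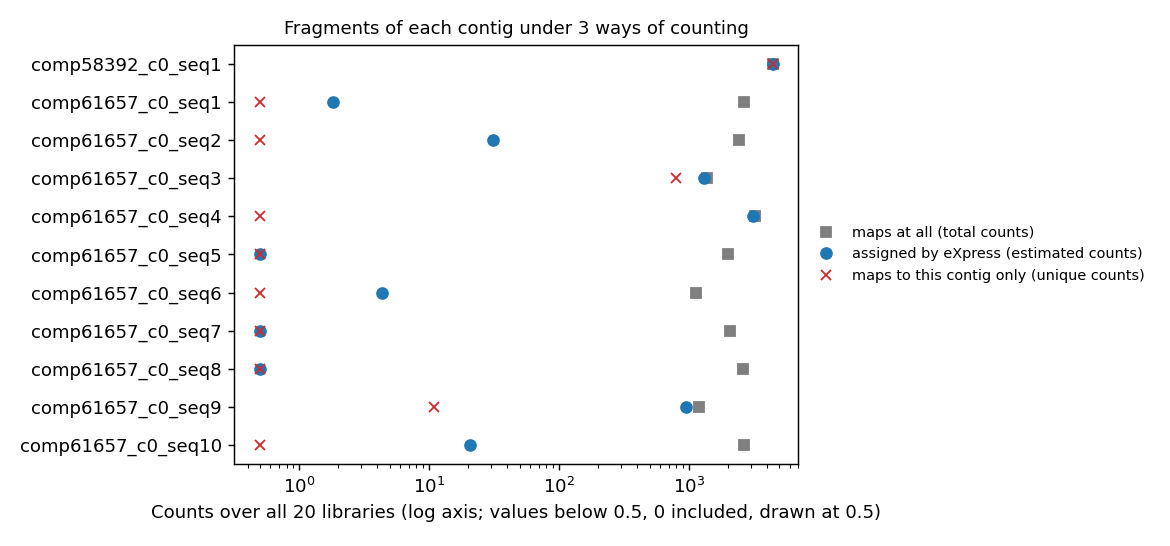
Counts of each of the 11 members summed over the 20 libraries (log axis), as fragments that map at all (squares), as estimated counts (circles) and as unique counts (crosses), with values below 0.5 drawn at 0.5. The 3 symbols coincide for GST (4453), whereas seq4 has 3135 estimated but 0 unique counts and 7 contigs have many mapping fragments but few estimated counts.

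GST was highest at 20°C and low at both warmer temperatures. Its 5 libraries had 42.3, 32.3, 39.5, 42.7 and 35.4 CPM at 15.5°C, and 67.2, 62.2, 64.5, 51.3 and 61.4 CPM at 20°C. At 25°C they had 7.16, 6.03, 7.91, 10.98 and 7.28 CPM, and at 28.6°C 10.6, 7.45, 8.19, 5.50 and 6.28 CPM. The libraries of 20°C lay above all of 15.5°C, both lay above all of the warmer libraries, and those of 25 and 28.6°C overlapped. The means were 38.4 ± 4.50, 61.3 ± 6.02, 7.87 ± 1.87 and 7.60 ± 1.96 CPM in order of temperature (SD, n = 5 each).

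The change in GST was thus a step between 20 and 25°C. On the log2 scale, GST at 25°C differed from 20°C by -2.93 (SE 0.17), a level 7.60-fold lower at 25°C. GST at 28.6°C differed from 25°C by -0.05 (SE 0.16). Against 15.5°C the log2 fold change was 0.67 (SE 0.15) at 20°C, -2.25 (SE 0.16) at 25°C and -2.30 (SE 0.16) at 28.6°C, the last a level 4.94-fold lower than at 15.5°C. Against 20°C it was -2.98 (SE 0.17) at 28.6°C. The higher level at 20°C than at 15.5°C depended on scaling, at 0.21 without TMM factors, whereas the values at 25 and 28.6°C against 15.5°C became -2.36 and -2.48. In raw counts, the files list 320 to 503 GST counts at 15.5°C, then 113 to 593 at 20°C, 42 to 88 at 25°C and 43 to 78 at 28.6°C.

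**Figure D2:**
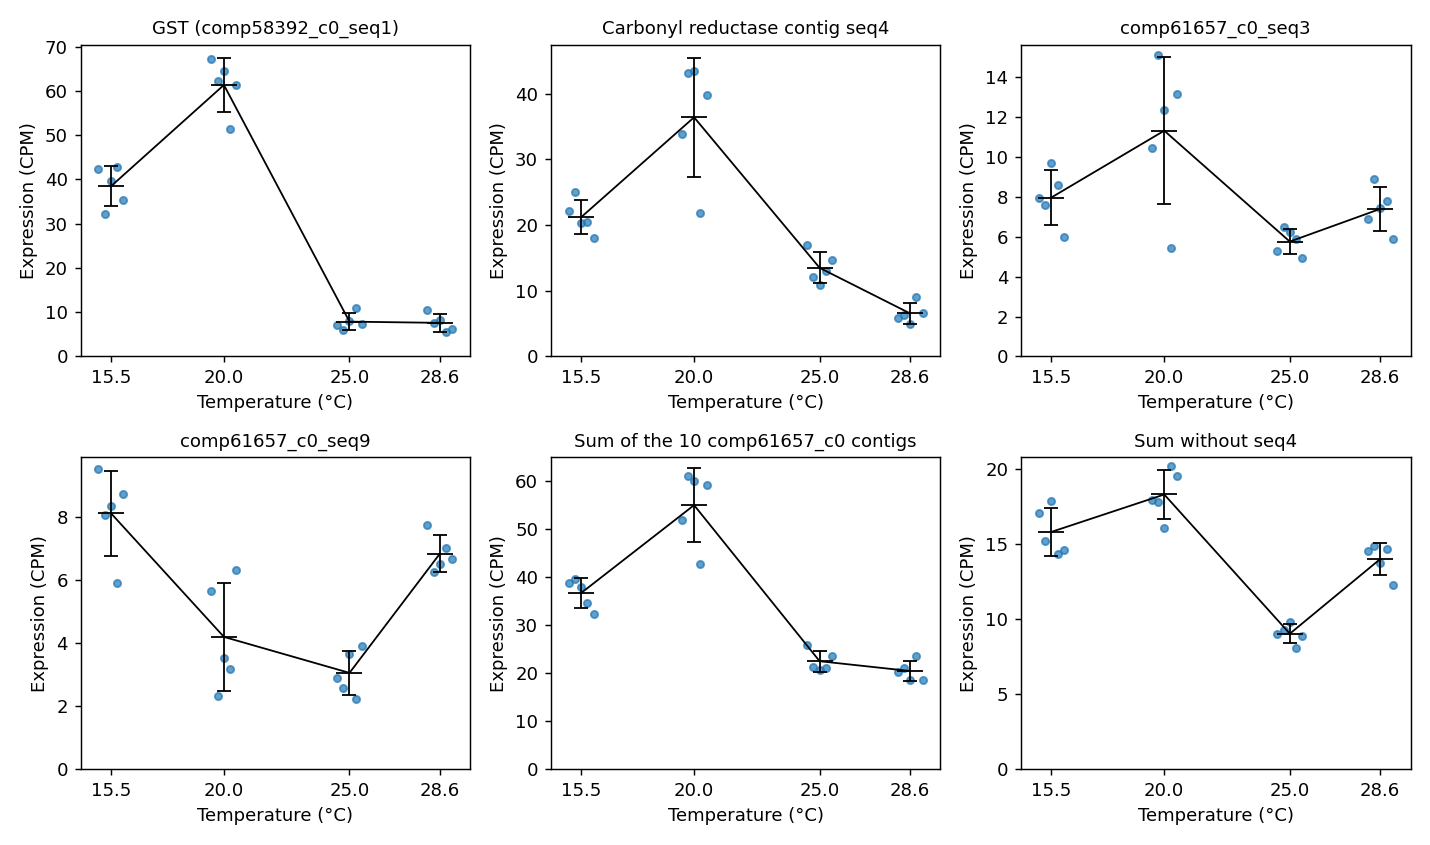
Expression in CPM against temperature in °C for GST, the 3 comp61657_c0 contigs that passed the filter, the sum of the 10 contigs and the sum without seq4, with a point per library and the mean ± SD (n = 5) as bars joined by a line. GST lies near 61.3 CPM at 20°C and at or below 10.98 CPM in all libraries of 25 and 28.6°C, while seq9 has its lowest mean at 25°C.

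Carbonyl reductase seq4 was also highest at 20°C, but it was lower at 25°C and lower again at 28.6°C, where GST had a single step. Its libraries had 22.2, 25.0, 20.3, 20.4 and 18.0 CPM at 15.5°C, and 33.8, 43.1, 43.5, 21.8 and 39.9 CPM at 20°C. At 25°C they had 16.9, 12.1, 10.8, 12.98 and 14.7 CPM, and at 28.6°C 5.87, 6.37, 4.93, 9.08 and 6.55 CPM. The libraries of 28.6°C lay below all of 25°C, which lay below all of the cooler libraries. The lowest library at 20°C, replicate 4, lay within the range of 15.5°C, and it is the library in which seq2 took 22.1 counts. Relative to 15.5°C, log2 fold changes of seq4 were 0.78 (SE 0.18) at 20°C, -0.64 (SE 0.18) at 25°C and -1.66 (SE 0.18) at 28.6°C. Seq4 at 25°C differed from 20°C by -1.43 (SE 0.18), and at 28.6°C from 25°C by -1.02 (SE 0.18). Its largest difference among the 6 comparisons was -2.44 (SE 0.19) at 28.6°C against 20°C, a level 5.44-fold lower at 28.6°C. At 20°C against 15.5°C the difference in seq4 was 0.31 without TMM factors.

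Over the whole subcomponent the lower level in heat was less marked, since the other contigs were not lower at 28.6°C than at 25°C. The sum of the 10 contigs was 38.8, 39.5, 37.9, 34.5 and 32.3 CPM at 15.5°C, and 51.8, 61.0, 59.97, 42.7 and 59.0 CPM at 20°C. It was 25.8, 21.3, 20.7, 21.0 and 23.5 CPM at 25°C, and 20.3, 21.1, 18.5, 23.6 and 18.6 CPM at 28.6°C. The sums at 20°C lay above all others, those at 15.5°C lay above both warmer temperatures, and those at 25 and 28.6°C overlapped. Against 15.5°C, the log2 fold change of the sum was 0.61 (SE 0.08) at 20°C, -0.70 (SE 0.08) at 25°C and -0.84 (SE 0.08) at 28.6°C. The sum at 28.6°C differed from 25°C by -0.14 (SE 0.09). The sum was thus 1.79-fold lower at 28.6°C than at 15.5°C, against 3.16-fold for seq4 alone. Much of the sum at 28.6°C lies on seq3 and seq9, whose annotation is not known here.

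Without seq4 the order of the temperatures changed. This remainder had 17.1, 15.2, 17.9, 14.3 and 14.6 CPM at 15.5°C, and 17.9, 17.8, 16.0, 20.2 and 19.6 CPM at 20°C. It had 9.03, 9.31, 9.84, 8.07 and 8.91 CPM at 25°C, and 14.5, 14.9, 13.7, 14.7 and 12.3 CPM at 28.6°C. The libraries of 25°C lay below all others, and those of 28.6°C overlapped with 15.5°C. The log2 fold change was 0.62 (SE 0.09) at 28.6°C against 25°C, and -0.17 (SE 0.08) at 28.6°C against 15.5°C. Unlike the full sum, this remainder depends on how the counting program split reads between seq4 and the other contigs. Its 20.2 CPM in replicate 4 of 20°C includes the 22.1 counts assigned to seq2. In total counts, which count a shared fragment for each contig, the difference of 28.6°C from 15.5°C was -0.98.

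Of the 2 contigs that could be tested, seq9 had a low point at the middle temperatures. It had 9.54, 8.08, 8.38, 5.93 and 8.75 CPM at 15.5°C, and 5.67, 2.32, 3.53, 3.18 and 6.32 CPM at 20°C. It had 2.91, 2.59, 3.65, 2.25 and 3.92 CPM at 25°C, and 7.78, 6.25, 6.51, 7.04 and 6.68 CPM at 28.6°C. Every library of 25°C lay below every library of 15.5 and 28.6°C. In the quasi-likelihood test of edgeR, with p-values adjusted by Benjamini-Hochberg over 30413 contigs, seq9 was lower at 25°C than at 15.5°C, with a log2 fold change of -1.34 (SE 0.22, adjusted p = 8.4e-05). At 28.6°C it was higher than at 25°C by 1.098 on the log2 scale (SE 0.22, edgeR adjusted p = 0.000825), a level 2.14-fold higher at 28.6°C. It was also lower at 20°C than at 15.5°C, at -0.90 (SE 0.23, edgeR adjusted p = 0.00491), while its difference of -0.24 (SE 0.22) between 28.6 and 15.5°C did not pass (edgeR adjusted p = 0.391). Counted as all fragments that map to it, that last difference was -0.41 (edgeR adjusted p = 0.000152). In estimated counts seq9 was higher at 28.6°C than at 20°C by 0.66 (edgeR adjusted p = 0.0255), but by mapping fragments the difference was 0.08 (edgeR adjusted p = 0.578), and the call was lost in 7 of 33 alternative settings, among them those without replicate 2 (0.49), 3 (0.60) or 4 (0.59) of 20°C or replicate 1 of 28.6°C (0.62). At 25°C against 20°C seq9 differed by -0.44 (edgeR adjusted p = 0.186), or by -0.81 in mapping fragments (edgeR adjusted p = 5.01e-07) and by -0.60 without replicate 2 of 20°C (edgeR adjusted p = 0.0489). Nearly as many fragments mapped to seq6, whose total counts lay between 16 below and 6 above those of seq9 in each library, and with 11 unique counts the pattern of seq9 cannot be assigned to that contig alone.

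Seq3, the one contig of the subcomponent with a large share of unique reads, varied less. It had 7.95, 7.57, 9.68, 8.59 and 5.98 CPM at 15.5°C, and 10.4, 15.1, 12.4, 5.45 and 13.2 CPM at 20°C. It had 5.29, 6.47, 6.21, 5.87 and 4.93 CPM at 25°C, and 6.90, 8.90, 7.45, 7.80 and 5.88 CPM at 28.6°C. All 4 temperatures overlapped in range, since replicate 4 of 20°C was as low as the libraries of 25°C. Seq3 fell at 25°C against 20°C by 0.97 on the log2 scale (SE 0.20, edgeR adjusted p = 0.00107) and by 0.94 in unique counts alone. At 28.6°C against 20°C it fell by 0.62 (SE 0.19, edgeR adjusted p = 0.0148), but the call was lost in 4 of 35 alternative settings, with -0.33 without TMM factors (edgeR adjusted p = 0.150) and -0.51 without replicate 2 of 20°C (edgeR adjusted p = 0.0516). Its difference between 20 and 15.5°C, 0.52 (SE 0.19), was at the threshold (edgeR adjusted p = 0.0492) and was lost in 23 of 35 alternative settings, 17 of which left out a single library of any of the temperatures. At 25°C against 15.5°C seq3 differed by -0.45 (edgeR adjusted p = 0.0741), a value that passed in 9 of 35 alternative settings, among them DESeq2, edgeR's likelihood ratio test and the fits without replicate 5 of 15.5°C (-0.54) or replicate 4 of 20°C (-0.46). Between 28.6 and 15.5°C it differed by -0.10 (SE 0.19, edgeR adjusted p = 0.701), or by 0.000204 in unique counts.

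Neither seq3 nor seq9 passed both criteria, an adjusted p below 0.05 and a fold change of at least 4, in any of the 6 comparisons (edgeR, 0 of 2 in each). Neither is among the transcripts that the authors called by like criteria on these libraries, so this outcome was largely set beforehand. At an unadjusted p below 0.05 both passed at 20°C against 15.5°C, at 25°C against 15.5°C and at 28.6°C against 20°C, 1 passed at 25°C against 20°C and at 28.6°C against 25°C, and 0 at 28.6°C against 15.5°C. DESeq2 and edgeR's likelihood ratio test gave the same counts by their adjusted p. As background, both criteria were met at 20°C against 15.5°C by 2.25% of all contigs tested as higher and 1.39% as lower, at 25°C against 15.5°C by 3.34% and 2.29%, and at 28.6°C against 15.5°C by 6.66% and 4.77%. The same shares were 1.51% and 1.73% at 25°C against 20°C, 5.02% and 4.84% at 28.6°C against 20°C, and 2.83% and 2.16% at 28.6°C against 25°C.

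By the adjusted p alone, seq3 was higher and seq9 lower at 20°C against 15.5°C, where 15.2% of all contigs tested lay higher and 13.9% lay lower. At 25°C against 15.5°C seq9 was lower (background 19% higher and 18.1% lower), and at 28.6°C against 15.5°C neither passed (background 23.4% and 22.6%). At 25°C against 20°C seq3 was lower (background 11% and 11.5%). At 28.6°C against 20°C seq9 was higher and seq3 lower (background 20.6% and 20.4%), and at 28.6°C against 25°C seq9 was higher (background 14.7% and 15.5%). With such backgrounds a call by the adjusted p alone was common among all contigs.

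**Figure D3:**
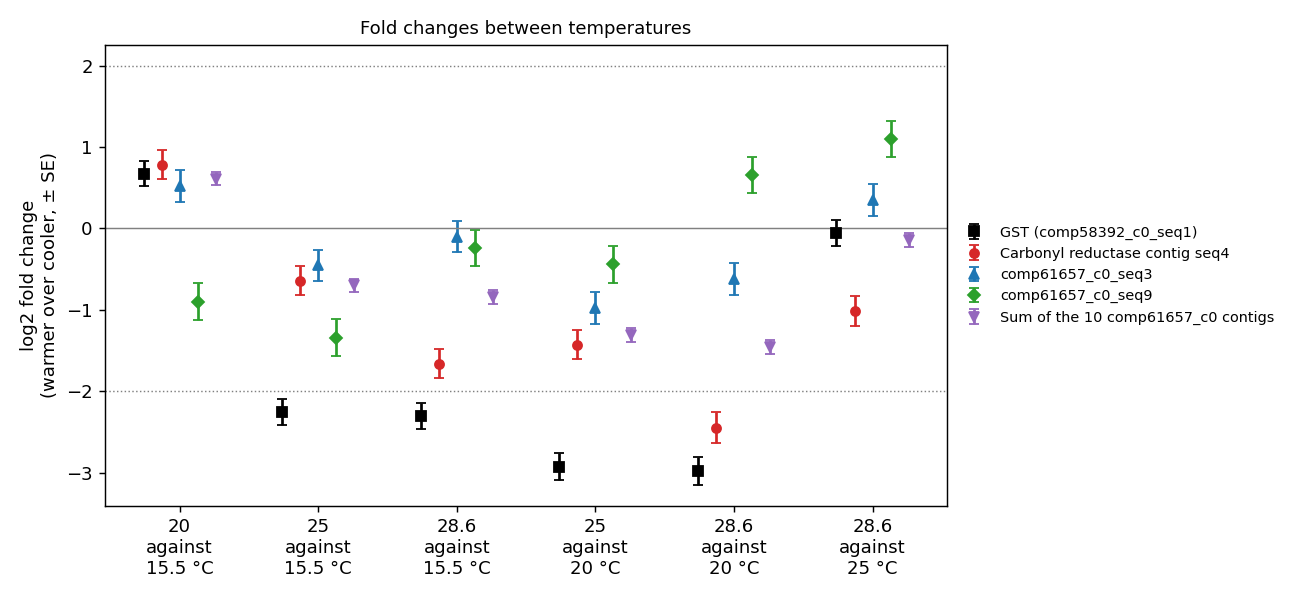
Log2 fold change of the warmer over the cooler temperature (± SE) in the 6 comparisons for GST, seq4, seq3, seq9 and the sum of the comp61657_c0 contigs, with dotted lines at the 4-fold criterion. GST passes the lower line in the 4 comparisons of 25 or 28.6°C with 15.5 or 20°C, and seq4 passes it at 28.6°C against 20°C (-2.44). Only seq9 has its highest value, 1.098, at 28.6°C against 25°C.

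The make-up of the subcomponent therefore differed with temperature, which can be read within a library and does not depend on scaling. Read positions listed by the counting program ran to 188 in 3 libraries of 15.5°C, 1 of 20°C, 4 of 25°C and 0 of 28.6°C. In the other libraries they ran to 99, and the part of this difference in the shares was not tested. Seq4 received 55.8%, 61.5%, 52.9%, 58.5% and 54.7% of the comp61657_c0 counts at 15.5°C, and 65.5%, 70.8%, 73.2%, 52.8% and 66.8% at 20°C. It received 64.9%, 56.4%, 52.4%, 61.5% and 62.1% at 25°C, and 28.2%, 29.4%, 25.9%, 37.8% and 34.5% at 28.6°C. The 5 libraries of 28.6°C lay below every other library, and the 3 cooler temperatures overlapped. Since seq4 had been picked for a decline in heat, its lower share there is a description. The share of seq9 averaged 21.9% ± 3.76 at 15.5°C, then 7.67% ± 3.01 at 20°C, 13.7% ± 3.28 at 25°C and 32.9% ± 3.63 at 28.6°C, and that of seq3 21.3% ± 3.39, 20.3% ± 4.11, 25.8% ± 4.96 and 35.4% ± 4.46 (SD, n = 5 each). At 28.6°C the subcomponent was thus shared about evenly by the 3 contigs.

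The shift was of like size before the counting program divided any reads. The fragments that map to seq3, seq4 and seq9 overlapped little, since their total counts added up to only 2.84% to 9.79% more than the fragments of the subcomponent. As a share of those fragments, seq4 held 58.4% ± 3.59 at 15.5°C, then 73.4% ± 2.23 at 20°C, 59.5% ± 5.03 at 25°C and 33.2% ± 4.32 at 28.6°C (SD, n = 5 each). By this measure the libraries of 20°C, 70.8% to 76.9%, lay above all others, and replicate 4 of 20°C, the lowest of its group in estimated counts, was the highest. Total counts of seq9 were 0.460 ± 0.0619 times those of seq4 at 15.5°C, then 0.185 ± 0.0303 at 20°C, 0.314 ± 0.0861 at 25°C and 1.11 ± 0.134 at 28.6°C.

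**Figure D4:**
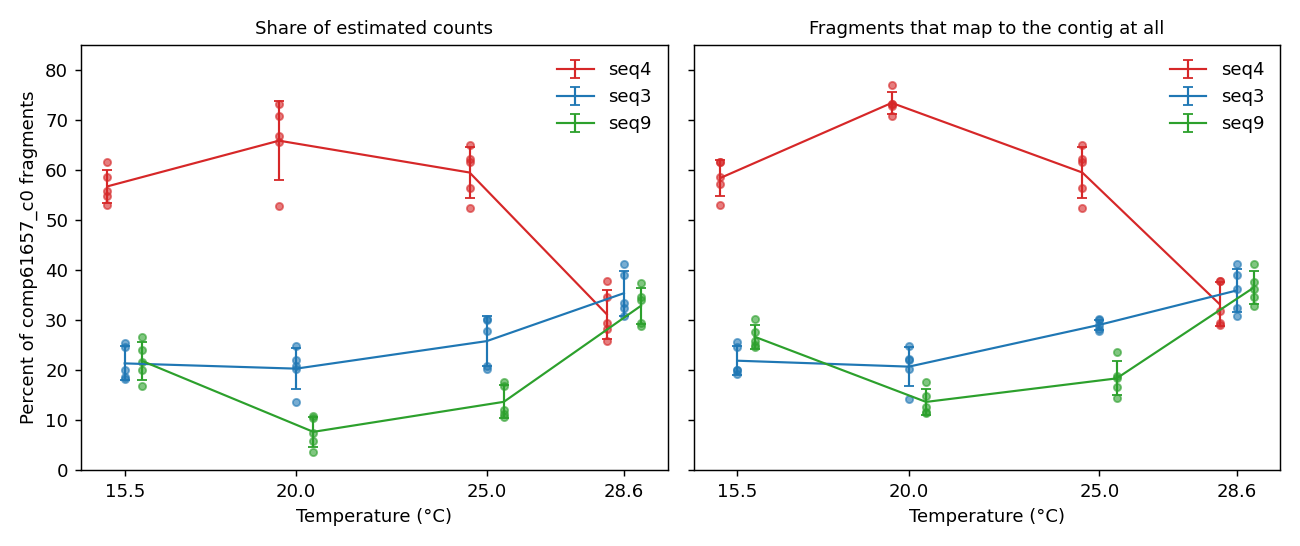
Percent of the comp61657_c0 fragments in each library that belong to seq4, seq3 and seq9 against temperature in °C, as estimated counts (left) and as fragments that map to the contig at all (right), with points for libraries and mean ± SD (n = 5). In both, seq4 has its lowest share at 28.6°C (31.1% and 33.2%), where the 3 contigs are about equal.

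The ratio of the 2 contigs that the study had not picked, seq9 over seq3 in total counts, was compared after the values had been seen. It was 1.04, 0.797, 0.930, 1.07 and 1.34 at 28.6°C, against 0.507, 0.622, 0.784, 0.596 and 0.639 at 25°C, with no overlap. The difference was 0.71 on the log2 scale (two-sided exact permutation test, p = 0.00794, the smallest that 5 against 5 allows, adjusted p = 0.0238 over 6 comparisons). Between 25 and 15.5°C the log2 difference was -0.97, with the same exact permutation p and adjusted p. Between 28.6 and 15.5°C it was -0.26 (exact permutation p = 0.167, adjusted p = 0.200). Differences of 20°C from 15.5°C (-0.89, adjusted p = 0.0635), of 28.6°C from 20°C (0.62, adjusted p = 0.0952) and of 25°C from 20°C (-0.09, adjusted p = 0.817) did not pass by the same exact permutation test. In estimated counts, 20°C from 15.5°C (-1.51) and 28.6°C from 20°C (1.38) passed, both without overlap and with an adjusted exact permutation p of 0.0238. The other 4 comparisons kept their side of the threshold, with a change of sign at 25°C against 20°C (0.55). Libraries of 28.6 and 25°C, and of 25 and 15.5°C, overlapped in estimated counts (exact permutation p = 0.0159, adjusted p = 0.0238 in both).

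GST and the carbonyl reductase subcomponent can also be set against each other within a library. There were 1.04 ± 0.155 GST counts per comp61657_c0 count at 15.5°C, then 1.14 ± 0.127 at 20°C, 0.354 ± 0.103 at 25°C and 0.368 ± 0.107 at 28.6°C (SD, n = 5 each). No library of the 2 warmer temperatures reached the lowest value of the cooler ones, 0.793. GST counts per seq4 count were 1.84 ± 0.315 at 15.5°C, then 1.76 ± 0.395 at 20°C, 0.599 ± 0.180 at 25°C and 1.24 ± 0.498 at 28.6°C, so they were lowest at 25°C. In the deposited FPKM, GST averaged 8.14 ± 1.47 at 28.6°C, against 49.0 ± 6.05 at 15.5°C, and the sum of the comp61657_c0 contigs 19.8 ± 2.58 at 28.6°C, against 40.9 ± 2.69 at 15.5°C (SD, n = 5 each). Per length, the sum lay above GST at 28.6°C with no overlap (17.3 to 24.1 FPKM, against 6.54 to 9.92 FPKM for GST), and at 15.5°C their ranges overlapped (37.8 to 44.1 FPKM, against 39.9 to 55.9 FPKM for GST). That order rests on contigs whose annotation is not known here. Seq4 alone averaged 6.09 ± 1.70 FPKM at 28.6°C, with seq3 at 5.72 ± 1.04 and seq9 at 7.90 ± 0.550 FPKM (SD, n = 5 each). FPKM at 20°C is lowered in replicates 1 and 4 by comp65386_c0, which stayed in its denominator. At 28.6°C these contigs took 4.91% to 15.1% of the counts, against 0.513% to 2.45% at 15.5°C. FPKM at 28.6°C is therefore also lowered against 15.5°C, while the order of contigs within a library is not affected.

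Other transcripts of the same enzyme families were set beside the members as a description, since they carry a name only where the authors had called them on these libraries. Besides the members, 135 such contigs were listed for glutathione use, carbonyl reduction, other detoxification, antioxidant enzymes, NADPH supply and phenoloxidases, and 95 passed the filter. At 28.6°C against 15.5°C, 3 of the 95 passed both criteria as higher and 32 as lower (over all contigs 6.66% and 4.77%), with a median log2 fold change of -1.69 against 0.01 over all contigs tested. At 20°C against 15.5°C, 13 were higher and 3 lower (over all contigs 2.25% and 1.39%), with a median of 0.80 against 0.01. Since the list holds transcripts already called, these counts are raised by that choice, and the shares over all contigs are no matched background.

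Among glutathione S-transferases, 17 of 24 other contigs passed the filter. At 20°C against 15.5°C 8 of the 17 passed both criteria as higher and 0 as lower (over all contigs 2.25% and 1.39%). At 28.6°C against 20°C 0 were higher and 13 lower (over all contigs 5.02% and 4.84%), and at 28.6°C against 15.5°C 0 and 3 (over all contigs 6.66% and 4.77%). Summed by subcomponent, 7 of 8 could be followed in which contigs of that name held at least 50% of the counts. At 20°C against 15.5°C the 7 differed by 0.13 to 2.80 on the log2 scale, of which the lowest, comp54440_c0, did not pass (edgeR adjusted p = 0.267) and lies within the shift of 0.42 that TMM scaling makes. At 25°C against 20°C they differed by -1.08 to -2.98 in the edgeR fit of sums. Passing a test there would be no support, since these contigs carry a name only because the authors had called them. The GST member, at 0.73 and -2.95 in that fit, lay within both ranges. Fat body and digestive tract markers were likewise highest at 20°C, and their part in this was not tested. At 25°C against 15.5°C the 7 lay between -1.59 and 0.93 and the member at -2.22, below each of them. The member had been picked for a decline in heat. Among single contigs the member, at -2.25, was not the lowest, since comp64917_c1_seq5 lay at -2.80.

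The most abundant contigs of that name, comp64917_c1_seq8 and comp64917_c1_seq6, averaged 4552 and 1818 CPM at 15.5°C, then 18547 and 10863 at 20°C, 2577 and 1416 at 25°C and 2797 and 1024 at 28.6°C, and few of their reads were unique. Summed, their subcomponent averaged 6948 ± 405 CPM at 15.5°C, then 33478 ± 3071 at 20°C, 4379 ± 276 at 25°C and 4047 ± 747 at 28.6°C, and comp60932_c0 averaged 1065 ± 34.3, 7397 ± 516, 935 ± 119 and 594 ± 95.8 CPM (SD, n = 5 each). All 7 subcomponents had their highest mean at 20°C with TMM scaling, as did the member. The one transferase among the 5 named contigs most like the member was on comp54440_c0, a Glutathione S-transferase with a best match in *Anopheles* (GST_ANOGA), with 15.8 ± 1.96, 17.6 ± 1.41, 5.11 ± 0.775 and 3.56 ± 0.622 CPM in the same order.

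**Figure D5:**
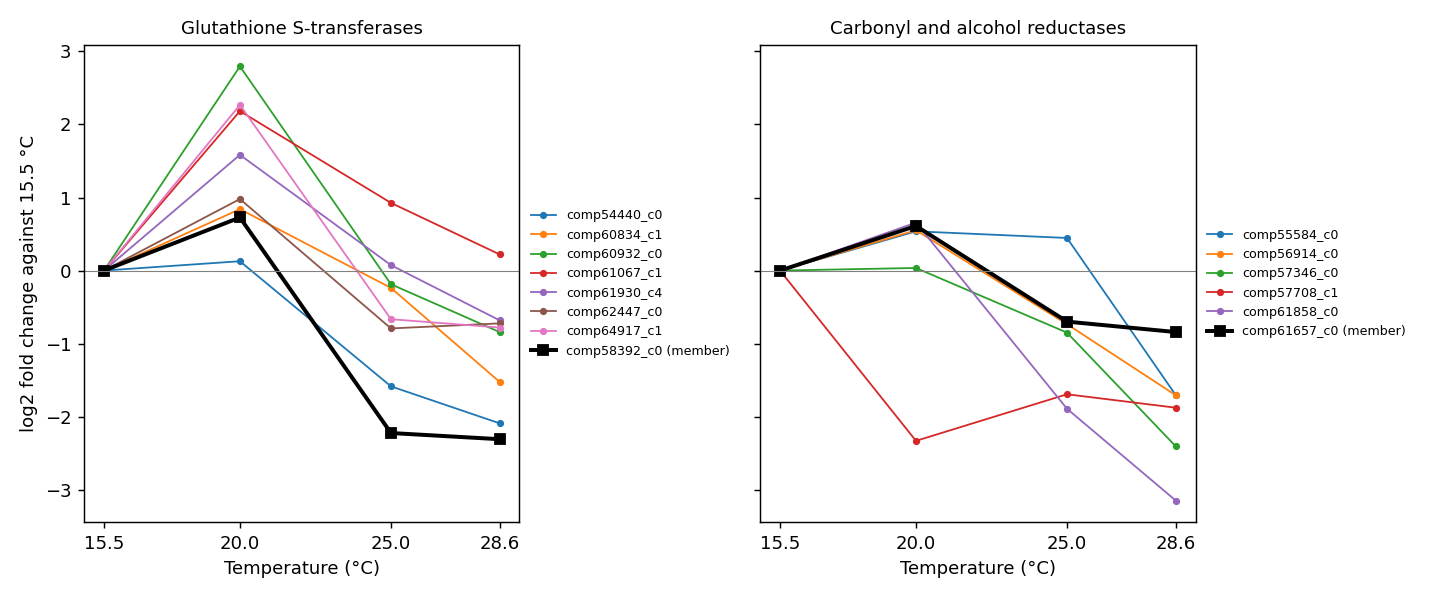
Log2 fold change against 15.5°C, set to 0, by temperature in °C for 7 subcomponents of glutathione S-transferases (left) and 5 of 7 of carbonyl and alcohol reductases (right), those in which named contigs held at least 50% of the counts, as thin lines, with the members as thick black lines. All 7 other transferases lie above 0 at 20°C with TMM scaling (the lowest at 0.13), and the GST member is the lowest at 25°C (-2.22).

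The other reductases had no common shape. Of 13 further contigs, 9 passed the filter, and at 28.6°C against 15.5°C 1 was higher and 3 lower by both criteria (over all contigs 6.66% and 4.77%). Carbonyl reductase [NADPH] 3 on comp55584_c0 averaged 31.2 ± 3.72 CPM at 15.5°C, then 45.2 ± 3.25 at 20°C, 42.6 ± 3.04 at 25°C and 9.41 ± 1.43 at 28.6°C, so its low level appeared at 28.6°C alone of the 4 temperatures. Dehydrogenase/reductase SDR family member 11, another short-chain dehydrogenase, averaged 34.6 ± 1.47, 54.8 ± 1.97, 9.20 ± 1.59 and 3.69 ± 0.769 CPM on comp61858_c0, and its largest step lay between 20 and 25°C as in GST. The 5 subcomponents in which contigs of such a name held at least 50% of the counts differed from 15.5°C by -1.71 to -3.15 at 28.6°C, against -0.84 for the comp61657_c0 sum. The other 2 of the 7 went another way, with sums at 3.002 (comp64936_c0) and 0.05 (comp65184_c3), although named reductases held only 0.192% and 1.31% of their counts. The named contigs of comp64936_c0 that passed the filter were comp64936_c0_seq1, comp64936_c0_seq12 and comp64936_c0_seq15. All were higher at 28.6°C than at 15.5°C, by 3.30, 0.79 and 1.75 on the log2 scale. These contigs were named after their values were seen.

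Single contigs of the neighbouring steps moved in both directions. Glutamate--cysteine ligase regulatory subunit, which regulates the first step of glutathione synthesis, was the best match of comp60491_c3_seq21. This was a distant match (GSH0_RAT, 28.62% identity), and the contig was the only one listed for glutathione synthesis. It averaged 15.4, 30.3, 15.8 and 144 CPM in order of temperature. Its log2 fold change was 3.20 at 28.6°C against 15.5°C, while GST was at -2.30. Peroxiredoxin-6 (comp56854_c0_seq1), a peroxidase that can use glutathione, averaged 32.6, 108, 58.9 and 17.7 CPM. Of NADPH supply, 6-phosphogluconate dehydrogenase (comp60884_c1_seq2), of the pentose phosphate pathway, averaged 75.1, 127, 37.7 and 24.1 CPM, and comp60884_c1_seq4 of the same name 4.37, 17.7, 3.93 and 4.39 CPM. Xanthine dehydrogenase (comp64423_c0_seq2), which degrades purines and whose oxidase form yields oxidants, averaged 79.1, 197, 294 and 209 CPM, and comp64423_c0_seq1 of the same name 59.4, 185, 316 and 198 CPM with few unique reads in either. The copper chaperone contig that the study listed (comp58560_c3_seq5) had 123 estimated counts in all and did not pass the filter. Phenoloxidases, copper enzymes of melanin formation, are the same 5 contigs that served as haemocyte markers above. At 28.6°C against 15.5°C all 5 were lower by the adjusted p (over all contigs 22.6%), 3 of them by both criteria (over all contigs 4.77%, edgeR). As transcripts already called on these libraries, they are given as a description. The study's phenoloxidase targets averaged 6.02, 7.34, 9.82 and 1.70 CPM (comp61132_c0_seq1) and 33.5, 25.9, 30.7 and 7.09 CPM (comp56149_c0_seq1), and the most abundant contigs 156, 176, 246 and 58.1 CPM (comp65529_c0_seq3) and 134, 62.5, 50.7 and 7.03 CPM (comp65529_c0_seq1).

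Transcripts with the profile most like the members were ranked by the Pearson correlation of log2 CPM over the 20 libraries, among 8792 contigs with a mean of at least 10 CPM. The 20 points fall into 4 temperatures of the same pools, so r describes likeness of profile only. Nearest to GST was comp60932_c2_seq1 (r = 0.98), with 12.6, 34.6, 1.003 and 1.30 CPM in order of temperature, followed by comp55195_c0_seq1, comp63886_c5_seq1, comp53573_c0_seq1 and comp64954_c0_seq3 (r of 0.96 to 0.97), and the table used here gives no name for these 5. Among named contigs the nearest to GST were Cytochrome P450 6k1 (comp62987_c0_seq1), Trypsin-7 (comp57885_c0_seq1), Fatty acid-binding protein, muscle (comp56023_c0_seq2), the Glutathione S-transferase comp54440_c0_seq1 and Peptidoglycan-recognition protein 2 (comp57872_c0_seq2), at r of 0.96. Nearest to seq4 were comp60749_c5_seq3, comp53255_c1_seq1, comp63430_c0_seq1 and comp57973_c0_seq1, without a name, and Trypsin-1 (comp63940_c0_seq11), all at r of 0.97. The other named contigs nearest to seq4 were Myrosinase 1 (comp57631_c0_seq1), Lipoyltransferase 1, mitochondrial (comp64379_c4_seq2), the Glutathione S-transferase comp60834_c1_seq1 and Aquaporin AQPAe.a (comp64170_c1_seq1), at r of 0.96. Trypsins are digestive proteases, and P450 enzymes oxidize toxins. Differences in r among the leading contigs were small. With replicates 1 and 4 of 20°C left out, 3 of the 5 nearest to GST and 1 of the 5 nearest to seq4 remained among the nearest 5.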

How the data were processed

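The authors trimmed reads with Trim Galore 0.3.0, assembled contigs with Trinity, mapped with Bowtie2 2.0.6 and counted with eXpress 1.5.1. The deposited counts are whole numbers of fragments that map to a contig at all (total) or only there (unique). The estimated counts the authors deposited divide shared reads by probability, and the deposited FPKM values follow from them. From the authors' table of called transcripts the annotation was used and 20 columns of values were not.

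The 10 comp65386_c0 contigs were removed, estimated counts rounded, and 30413 contigs with at least 2 CPM in at least 4 libraries kept. R 4.3.3 with edgeR 4.0.16 gave TMM factors and a quasi-likelihood fit of all 20 libraries with a coefficient per temperature and a prior count of 2. Sums were fitted per subcomponent. P-values were adjusted by Benjamini-Hochberg within each comparison, and each SE is the absolute fitted difference over the root of its F statistic. Alternatives included DESeq2 1.42.0, edgeR's likelihood ratio test, RLE factors or library size alone in place of TMM, and comp65386_c0 kept. Others used no filter, a filter of 2 CPM in all libraries, or unique, effective or total counts. Further fits took 2 temperatures only, a replicate block, the set of read positions as covariate, or a prior count of 0.5. Libraries were also left out singly, and replicates 1 and 4 of 20°C together. The closing section gives results from some of these. Ratios and tables were made in Python 3.11.15 with scipy 1.17.1. No libraries were identical (0 of 190 pairs). In simulated data for 28.6 against 15.5°C, with 200 of 30413 contigs changed, all at 5 CPM or more, 100% of 2-fold and 100% of 8-fold changes were recovered and 16 unchanged contigs also fell below the adjusted p. Each simulated contig had the same small dispersion and no shared reads. Seq9 averaged 4.21 ± 1.71 CPM at 20°C (SD), so this recovery does not carry over to contigs such as seq9. The upper limit given for a count of 0 covers counting error only.

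Transcripts named are all members, the 5 contigs most like GST and seq4 overall and among named ones, and from the redox list the study's targets and the 2 most abundant contigs per role. Subcomponents comp60932_c0 and comp54440_c0 were chosen after their values were seen. The members, lists and tests were chosen with earlier results of these data known.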

Additional observations from a re-analysis of the deposited data

How the results depend on the processing

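The GST and seq4 differences of 25 and 28.6°C from 15.5°C moved by less than the spread between libraries in every alternative that could be fitted. With 1 library left out at a time, GST ranged over 0.61 to 0.73 (20°C), -2.39 to -2.17 (25°C) and -2.44 to -2.20 (28.6°C) against 15.5°C, and seq4 over 0.70 to 0.91, -0.73 to -0.57 and -1.79 to -1.56. Without TMM factors, values at 20°C against 15.5°C became 0.21 (GST), 0.31 (seq4), 0.10 (sum) and -0.30 (sum without seq4, 0.20 with them). That setting also gave -1.01 for the sum at 28.6°C, and -0.92 (25°C) and -0.34 (28.6°C) for the sum without seq4. In unique counts, which hold no seq4 reads, the sum was -0.30 at 25°C and -0.061 at 28.6°C, and the sum without seq4 was 0.65 at 20°C and -0.30 at 25°C. In total counts, which count a shared fragment for each contig, the sum was -1.06 at 28.6°C and the sum without seq4 was 0.57 at 20°C and -0.98 at 28.6°C.

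The difference in seq3 between 28.6 and 15.5°C was 0.000204 in unique counts, and the log2 ratio of seq9 to seq3 at 25°C against 20°C was 0.55 in estimated counts, an alternative chosen after seeing the data. By the adjusted p alone (edgeR), 2 of the other contigs passed at 20°C and 1 at 25°C against 15.5°C. All contigs called at 20, 25 and 28.6°C against 15.5°C numbered 1107, 1712 and 3477, against 8850, 11266 and 13988 by the adjusted p alone, 131, 230 and 504 among contigs over 2 CPM in all libraries, 436, 587 and 1460 in unique counts and 294, 560 and 1615 in total counts. The cause of these shifts was not tested, except that the filter on all libraries tests fewer contigs by its construction. Depth limits seq3 and seq9, which held 1319 and 953 estimated counts over the 20 libraries. Same-numbered libraries did not deviate together (30 correlations of -0.023 to 0.046), so no pairing by number was found. A pairing too weak to stand out from counting error is not excluded. With a replicate block GST stood at -2.31 and seq4 at -1.65 at 28.6°C against 15.5°C, and seq3 at 20°C against 15.5°C lost its call (edgeR adjusted p = 0.0635). The other calls on seq3 and seq9 kept their side.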
